A study of Mus musculus with 22 samples.

Results

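The genes described here encode the proteins of the cytosolic ribosome. They were taken by symbol: every feature of the expression table whose annotated gene carries an Rpl or Rps number, with Rplp0, Rplp1, Rpsa and Rps27rt added and the Rps6k kinases left out. The rule took 64 genes, each with 1 feature, of 22206 features in all, of which 19572 had a gene symbol. Of the 64, 39 have names of the large 60S subunit and 25 have names of the small 40S subunit.

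The study measured liver RNA over the day in mice that lack adiponectin, a hormone that fat cells secrete, on 22 Clariom S microarrays. The mice were males, 3 to 8 months old. They carried a global knockout from the line B6;129-Adipoqtm1Chan/J, which is strain 008195 of JAX, and their background was C57BL/6J. They were housed in groups with 12 h of light and 12 h of darkness and had free access to chow. Livers were taken at zeitgeber times (ZT, hours after lights on) ZT2, ZT6 and ZT10 of the light phase and at ZT14, ZT18 and ZT22 of the dark phase. There were 4 arrays each at ZT2, ZT10, ZT14 and ZT22 and 3 each at ZT6 and ZT18. Every group carried the same knockout, so no comparison here concerns the genotype, and wild-type livers were not analysed here. Arrays are named by time and letter, and the study's text gives 3 to 4 mice per time, and the p-values rest on the spread among these arrays alone.

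A ribosome joins a small subunit, which reads the mRNA, to a large subunit, which forms the peptide bonds, and each is built from ribosomal RNA and a fixed set of proteins. Mammalian ribosomal protein mRNAs begin with a terminal oligopyrimidine (TOP) tract, through which LARP1 and the kinase mTOR control whether they are translated. In mouse liver, translation of these mRNAs is known to change over the day with feeding and the clock, so their RNA level is only part of their control. Many of the genes have processed pseudogenes of near-identical sequence, and signal from such copies cannot be told apart from that of the gene on these arrays.

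The start regions below are those of genes the results turn on: Rps15 and Rpl7l1 as leading genes over the day, Rpl35, Rpl38 and Rps9 as genes set apart in a group of arrays, and Rps6 as the target of the S6 kinases. Each run is 90 bases from RefSeq, build GRCm38.p6, printed 5′ to 3′ on the gene's strand, and base 61 is the first transcribed base of the annotated start. Capitals mark matches to the ETS motif CCGGAAG, the YY1 motif AAGATGGC or a TOP tract. A TOP tract was taken as a C followed by at least 4 letters that are each C or T, beginning within 5 bases of the annotated start.
Rps15, chr10:80292371-80292460, plus strand: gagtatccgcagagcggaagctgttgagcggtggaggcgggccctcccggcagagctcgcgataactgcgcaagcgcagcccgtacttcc
Rpl7l1, chr17:46782627-46782716, minus strand: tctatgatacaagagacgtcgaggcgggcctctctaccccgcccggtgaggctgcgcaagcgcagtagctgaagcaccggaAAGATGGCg
Rpl35, chr2:39005102-39005191, minus strand: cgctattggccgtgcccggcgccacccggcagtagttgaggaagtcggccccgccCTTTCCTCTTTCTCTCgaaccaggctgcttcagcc
Rpl38, chr11:114668520-114668609, plus strand: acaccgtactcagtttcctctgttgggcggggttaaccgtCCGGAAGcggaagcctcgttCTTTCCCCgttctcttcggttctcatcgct
Rps9, chr7:3703981-3704070, plus strand: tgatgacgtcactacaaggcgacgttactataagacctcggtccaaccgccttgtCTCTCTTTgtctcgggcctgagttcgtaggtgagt
Rps6, chr4:86857338-86857427, minus strand: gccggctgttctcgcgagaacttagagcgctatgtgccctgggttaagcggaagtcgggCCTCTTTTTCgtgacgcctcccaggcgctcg
The runs of Rpl35, Rpl38, Rps9 and Rps6 hold a TOP tract at the annotated start, and that of Rpl7l1 holds a YY1 match. The printed set-apart genes do not stand for all of them. Of 12 set-apart genes with a start region given, 6 held a TOP tract, against 45.1% of all members with one. Those of Rps16 and Rps28, which are set apart but not printed, held none. The run of Rps15 holds none of these matches, and the stretch of C and T at its end lies too far from the annotated start to count.

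Windows from 250 bases before to 50 bases after the annotated start were given for 51 of the 64 genes. A TOP tract by this definition was found in 23 of the 51 (45.1%), against 21.2% of the 27025 genes with a window. The ETS motif was found in 21 of the 51 (41.2%), against 9.93% of all genes. The YY1 motif was found in 4 of the 51 (7.84%), against 3.19% of all genes. The E-box CACGTG, a sequence that clock proteins bind, was found in 4 of the 51 (7.84%), against 8.09% of all genes. The D-box TTATGTAA was found in 0 of the 51, against 1.11% of all genes. The ETS, YY1, E-box and D-box motifs were searched on both strands, and the TOP tract on the gene's own strand only. The last letters of the ETS motif can overlap the first of the YY1 motif. These are matches of letters in short windows, and no binding was measured.

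Ribosomal protein transcripts were among the brighter features: 62 of the 64 had a mean log2 value above the median feature, and the means ran from 3.28 to 16.85. The exceptions were Rpl3l, the form made in striated muscle, and Rpl39l, a form enriched in testis. Rpl3l was at or below the lower quartile of the array in 20 of the 22 arrays and Rpl39l in 6, and no other member was in any array. Values also varied less between arrays than those of other features, with a median SD over the 22 arrays of 0.26 log2 units, against 0.34 for all features. Rps21, a 40S protein, varied most (SD 0.51), with values from 10.51 in ZT2d to 12.52 in ZT22a. Rpl31, a 60S protein, varied least (SD 0.15), with values from 14.03 in ZT2a to 14.62 in ZT22c.

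The first question was whether these transcripts followed the time of day. In limma's test of a 24 h cosine, Rps15 alone of the 64 passed, at an adjusted p under 0.05 (Benjamini-Hochberg over all 22206 features). That is 1.56% of the members, against 7.62% of all features and 13.6% of the features above the median level in the same fit. At an unadjusted p under 0.05, 9 of the 64 passed (14.1%), against 21.1% of all features and 32.3% of the brighter ones. The fitted span between trough and peak had a median of 1.2-fold over the members, against 1.24-fold over all features and 1.29-fold over the brighter ones. In the test for any difference among the 6 times, 2 members passed, Rpl7l1 and Rps15, which is a share of 3.12%, against 6.14% of all features and 11.2% of the brighter ones.

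Rps15, a protein of the head of the 40S subunit, had the clearest daily course. From ZT2 to ZT10 its log2 values were 14.30, 14, 14.10 and 14.20 at ZT2, 13.82, 13.82 and 13.99 at ZT6, and 14, 13.93, 13.75 and 14.33 at ZT10. From ZT14 to ZT22 they were 14.11, 14.45, 14.39 and 14.34 at ZT14, 14.48, 14.41 and 14.51 at ZT18, and 14.31, 14.86, 14.40 and 14.91 at ZT22. The 3 arrays of ZT18 lay above every array of the light, while those of ZT14 and ZT22 overlapped with the highest light arrays, ZT2a and ZT10d. The fitted span was 1.64-fold with a peak at ZT19.4 ± 0.73 h (SE; limma adjusted p = 0.00566). The mean of the dark times was 14.47 and that of the light times 14.01, a dark minus light difference of 0.46 ± 0.10 log2 units (SE; limma adjusted p = 0.00779). Both calls held when any 1 array was left out, with adjusted p of at most 0.014 for the rhythm and 0.0204 for the dark minus light difference (limma). The any-time call (limma adjusted p = 0.0463) was less firm: it held in 4 of 22 omissions, those of ZT10d, ZT14a, ZT22a and ZT22c, and the adjusted p reached 0.113 in the others. It was also lost after centring (limma adjusted p = 0.0524), with the replicate letter as a block (0.0661), after quantile normalization (0.0999) and without the 5 arrays with Tff3 above 8, which are described further on (0.102).

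Rpl7l1 is a paralogue of the 60S protein gene Rpl7, and its relative Rlp7 in yeast is a factor of 60S assembly. From ZT2 to ZT10 its log2 values were 10.40, 10.58, 10.98 and 10.45 at ZT2, 10.68, 11.09 and 10.83 at ZT6, and 10.59, 10.44, 10.77 and 10.42 at ZT10. From ZT14 to ZT22 they were 11.37, 11.17, 11.39 and 11.17 at ZT14, 10.92, 11.08 and 11.29 at ZT18, and 10.77, 11.43, 11.05 and 11.10 at ZT22. All 4 arrays of ZT14 were above every light array, while arrays of ZT18 and ZT22 overlapped with the light arrays ZT2c, ZT6b and ZT6c. The mean of the dark times was 11.15 and that of the light times 10.68, a difference of 0.48 ± 0.11 log2 units (SE; limma adjusted p = 0.00767). This call also held in all 22 omissions of an array, with adjusted p of at most 0.0247 (limma). The cosine test gave an adjusted p of 0.0697, and it passed only without ZT6b among the omissions (limma adjusted p = 0.0258). The any-time test (limma adjusted p = 0.0336) held in 9 omissions, those of ZT2c, ZT6a, ZT6b, ZT6c, ZT10c, ZT18a, ZT22a, ZT22b and ZT22c, and reached 0.074 in the others and 0.0731 after quantile normalization.

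Rpl3, a 60S protein close to the site where peptide bonds form, was the third gene higher in the dark. From ZT2 to ZT10 its log2 values were 12.80, 13.30, 12.90 and 12.69 at ZT2, 12.77, 13.29 and 13.03 at ZT6, and 12.58, 12.68, 12.90 and 12.60 at ZT10. From ZT14 to ZT22 they were 13.06, 13.26, 13.26 and 13.12 at ZT14, 13.28, 13.35 and 13.41 at ZT18, and 13.64, 13.50, 12.86 and 13.19 at ZT22. Light arrays ZT2b and ZT6b reached the level of most dark arrays, and ZT22c was as low as the middle of the light. The means were 13.27 for the dark times and 12.88 for the light times, a difference of 0.39 ± 0.11 log2 units (SE; limma adjusted p = 0.0355). The call held only in 8 omissions, those of ZT2b, ZT6b, ZT6c, ZT10c, ZT14a, ZT14d, ZT22c and ZT22d, and the adjusted p reached 0.0766 in the other 14. It was also lost after quantile normalization, at a difference of 0.34 (limma adjusted p = 0.0752). In the 17 arrays left without those of Tff3 above 8 the difference was 0.44 and did not pass (limma adjusted p = 0.0902). Its cosine test gave a limma adjusted p of 0.0750 and passed only without ZT6b or ZT22c among the omissions (lowest adjusted p = 0.0251).

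**Figure D1:**
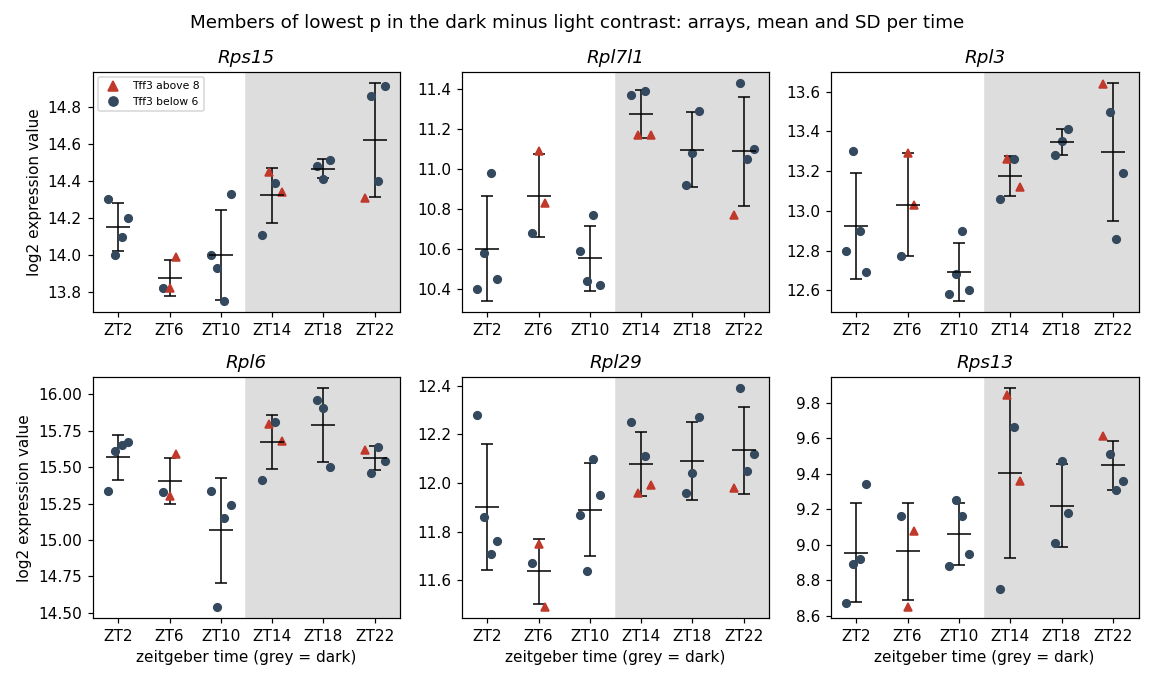
Log2 expression value (vertical axis) by zeitgeber time (horizontal axis, dark shaded grey) of the 6 ribosomal protein genes of lowest p in the dark minus light contrast. Points are arrays, triangles the 5 arrays with Tff3 above 8, and bars the mean and SD of each time. Rps15, Rpl7l1 and Rpl3 passed the test at dark minus light differences of 0.46, 0.48 and 0.39, and the others did not.

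These 3 genes, 4.69% of the members, were the only ones called in the dark minus light contrast, all higher in the dark, against 3.25% of all features and 6.05% of the features above the median level. None of the 64 was called lower in the dark, against 2.02% of all features and 3.20% of the brighter ones. The next by p were Rpl6, with a dark minus light difference of 0.33 ± 0.11 (SE; limma adjusted p = 0.0763), and Rpl29 with 0.29 ± 0.10 (adjusted p = 0.0934). Both encode 60S proteins. Rps13, a 40S protein, followed with 0.36 ± 0.13 (SE; limma adjusted p = 0.0980). Rps21 had the largest difference of all members, 0.50 ± 0.18, and did not pass (SE; limma adjusted p = 0.117). Omission of single arrays added Rps21 and Rpl21 without ZT6c, Rpl29 without ZT2a, and Rpl6 and Rps13 without ZT14a.

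Most members lay on the dark side of 0 by amounts that single-gene tests did not resolve. The dark minus light difference was positive in 50 of 64 members (78.1%), against 47.5% of all features and 57.8% of the features above the median level. Its median was 0.13 log2 units over the members, -0.013 over all features and 0.042 over the brighter ones. The differences of single members ran from -0.22 for Rps4l to 0.50 for Rps21. After quantile normalization the members' median was 0.080 with 46 positive, and without the arrays with Tff3 above 8 it was 0.099 with 48 positive. Quantile normalization also moved the dark-higher share of all called features to 53.3%, against 61.6% as deposited. Of the 5 arrays with Tff3 above 8, 3 were dark and 2 light. Hepatocyte markers had summed log2 levels of 22.02 to 22.10 in dark arrays and 21.83 to 22.04 in light arrays, with 1 of 7 genes, Tat, called higher in the dark. Kupffer cell markers had 9.63 to 10.43 in dark arrays and 9.95 to 11.13 in light arrays, with 1 of 5 genes, Cd5l, called lower. Neutrophil markers had 5.36 to 6.16 in dark arrays and 5.85 to 6.80 in light arrays, with 1 of 3 genes, S100a9, called lower. Lymphocyte markers had 6.23 to 7.17 in dark arrays and 6.42 to 6.98 in light arrays, with 1 of 5 genes, Cd79b, called lower. Cd79b was at the floor, and 0 of the 5 lymphocyte and 0 of the 3 neutrophil markers had a mean above the median feature. In the other 7 marker lists limma called 0 genes at an adjusted p under 0.05, and the part of cell types in the contrast was not tested. The 40S and 60S proteins had medians of 0.15 and 0.10, with 19 of 25 and 31 of 39 positive. The 8 genes whose names mark them as paralogues had a median of 0.032, with 5 of 8 positive.

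**Figure D2:**
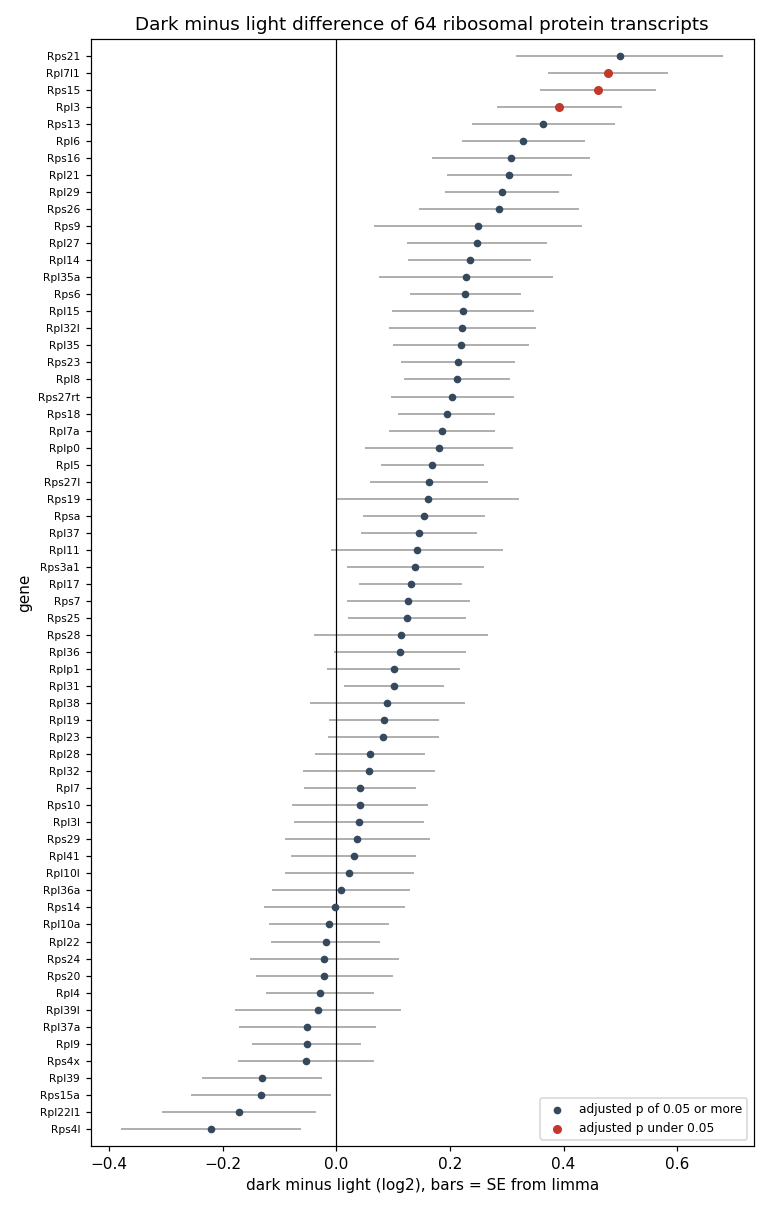
Dark minus light difference (log2, horizontal axis) of each of the 64 ribosomal protein transcripts (vertical axis), with bars for the SE from limma. The 50 positive differences lie right of the line at 0, and Rpl7l1, Rps15 and Rpl3, in red, passed at an adjusted p under 0.05.

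The low point of many members was the end of the light phase. Of the 64 time courses, 32 (50%) had their lowest mean at ZT10, against 15.4% of all features and 19.3% of the brighter ones. A further 14 had it at ZT6. The highest mean fell at ZT18 in 22, at ZT14 in 17, at ZT2 in 13 and at ZT22 in 9. This count rested in large part on 1 array, as it was 21 without ZT10c, against 17.5% of all features, and 23 without ZT6c was the next lowest of all omissions. Within ZT10 the median deviation of the members from their own means was 0.009 in ZT10a, -0.037 in ZT10b, -0.33 in ZT10c and -0.17 in ZT10d. In ZT10c only 8 of 64 members were above their own mean, and the median of all brighter features was -0.060 there. ZT6a was also low, with a median of -0.20 and 7 of 64 members above their own mean. The 3 arrays of ZT18 were alike, with medians of 0.054, 0.092 and 0.094. Whether the quality of the RNA differed between these livers was not tested.

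**Figure D3:**
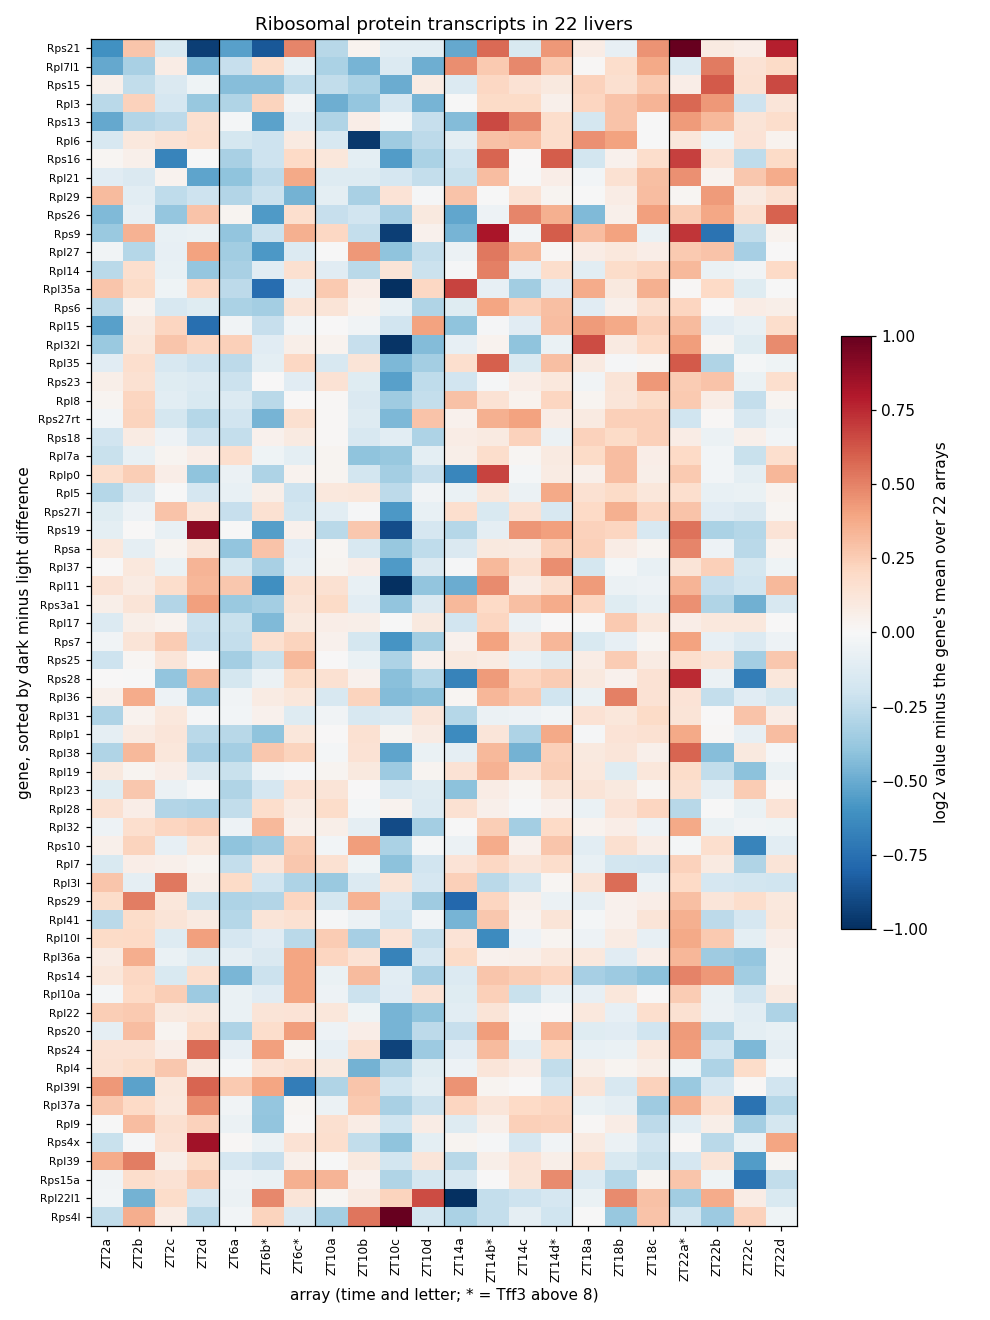
Log2 value minus the gene's mean over the 22 arrays (colour, capped at -1 and 1) for the 64 ribosomal protein genes (rows, sorted by dark minus light difference) in each array (columns, in order of time, asterisks for Tff3 above 8). In ZT10c 8 of 64 genes and in ZT6a 7 of 64 were above their own mean, against 54 of 64 in ZT22a.

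**Figure D4:**
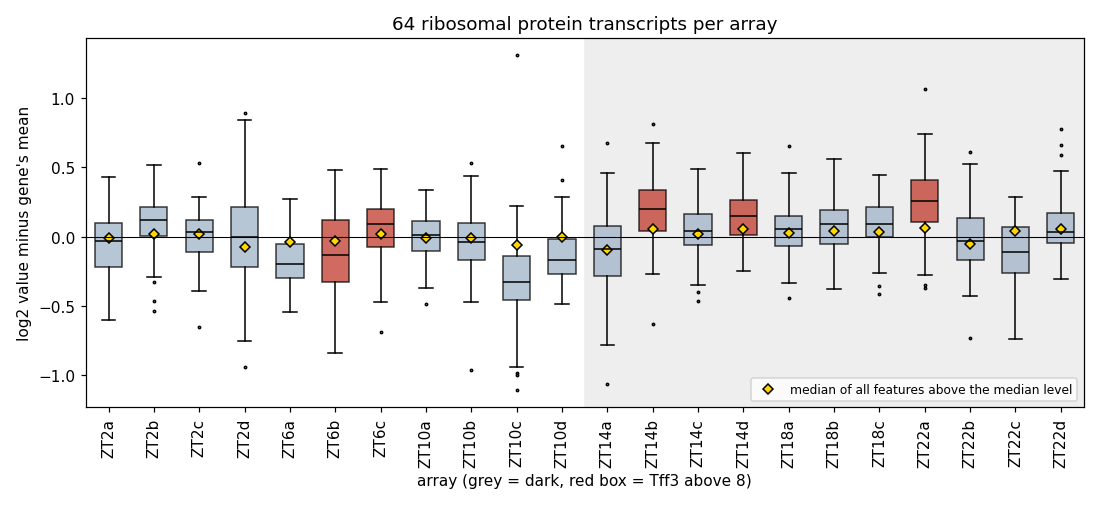
Distribution of the 64 deviations (log2 value minus the gene's mean, vertical axis) in each array (horizontal axis, dark shaded grey). Boxes span the quartiles with the median as a line, whiskers reach the last value within 1.5 times the box height, red boxes are arrays with Tff3 above 8, and diamonds are the medians of all features above the median level. Medians run from -0.33 in ZT10c to 0.26 in ZT22a.

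Times 12 h apart were then compared. Between ZT14 and ZT2, 1 member passed (1.56%), against 4.27% of all features: Rpl7l1 averaged 11.28 ± 0.12 at ZT14 and 10.60 ± 0.26 at ZT2 (SD, n = 4 each). The difference was 0.67 ± 0.17 log2 units (SE; limma adjusted p = 0.0249). This call was lost without ZT2a, ZT2b, ZT2d, ZT14a or ZT14c (limma adjusted p of at most 0.0901). The difference was 0.78 without the arrays with Tff3 above 8 and 0.67 in a fit of the 2 times alone, and with these fewer arrays it did not pass (limma adjusted p = 0.0589 and 0.0930). The members' median for this contrast was 0.054, against -0.013 over all features and 0.018 over the features above the median level. Of the 64, 38 were positive (59.4%), against 48.1% of all features and 51.8% of the brighter ones. The members' median was 0.011 without ZT14b, 0.028 without ZT2c, 0.10 without ZT2b and 0.12 without ZT14a. Among the 8 paralogues only Rpl7l1 was positive. The next members by p were Rps13 with 0.45 ± 0.21, Rps6 with 0.33 ± 0.16 and Rps16 with 0.39 ± 0.23 (SE), none of which passed (limma adjusted p = 0.289, 0.321 and 0.436). Rps13 passed without ZT14a. Rpl14 with 0.29 ± 0.18 and Rpl39 with -0.29 ± 0.17 did not pass either.

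Between ZT18 and ZT6, limma called 0 of 64 members, against 1.13% of all features, and 3 (4.69%) had an unadjusted p under 0.05, against 13.5% of all features. The count stayed at 0 under every other setting tried, omissions of single arrays included. The members' median difference was 0.18, against -0.007 over all features and 0.053 over the features above the median level. Without ZT6a the members' median was 0.12. The difference was positive in 50 of 64 members (78.1%), against 49.2% of all features and 55.8% of the brighter ones. Rps15 had the lowest p, with 14.47 ± 0.05 at ZT18 and 13.88 ± 0.10 at ZT6 (SD, n = 3 each), a difference of 0.59 ± 0.19 (SE; limma adjusted p = 0.144). Rpl29, Rpl35a, Rpl15, Rpl6 and Rpl27, all of the 60S subunit, came next, with differences of 0.45, 0.64, 0.45, 0.38 and 0.43. Their adjusted p from limma lay between 0.277 and 0.430.

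Between ZT22 and ZT10, 1 member passed (1.56%), against 3.30% of all features. Rps15 averaged 14.62 ± 0.31 at ZT22 and 14.002 ± 0.24 at ZT10 (SD, n = 4 each), a difference of 0.62 ± 0.17 (SE; limma adjusted p = 0.0391). The call was lost without ZT10a, ZT10b, ZT10c, ZT18a, ZT18b, ZT18c, ZT22b or ZT22d (limma adjusted p of at most 0.149) and after quantile normalization (limma adjusted p = 0.107) or in a fit of the 2 times alone (limma adjusted p = 0.138). Rpl3 with 0.61 ± 0.18 and Rpl7l1 with 0.53 ± 0.17 followed (SE; limma adjusted p = 0.0652 and 0.103), and Rpl3 passed without ZT22c. Rpl32l, Rpl6 and Rpl21 had 0.60 ± 0.21, 0.50 ± 0.18 and 0.45 ± 0.18 and did not pass (SE; limma adjusted p = 0.143, 0.144 and 0.213). The median over the members was 0.16, against -0.022 over all features and 0.042 over the features above the median level. Without ZT10c the members' median was 0.075, and without ZT22a it was 0.098. The difference was positive in 52 of 64 members (81.2%), against 46.9% of all features and 54.8% of the brighter ones. The 3 contrasts use different arrays, but all take their spread from the same fit.

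Of the stalk proteins, the paralogues and the other genes with names of their own, Rpl7l1 alone passed any of these tests. Rps6, whose protein the S6 kinases phosphorylate, had a mean of 16.96 over the dark times and 16.73 over the light times. Its difference of 0.23 ± 0.10 did not pass (SE; limma adjusted p = 0.198). Of the stalk proteins, which recruit translation factors to the 60S subunit, Rplp0 differed by 0.18 ± 0.13 and Rplp1 by 0.10 ± 0.12 between dark and light (SE; limma adjusted p = 0.494 and 0.706). Rpsa, a 40S protein also known as the laminin receptor precursor, differed by 0.15 ± 0.11, and Rps27rt, a retrogene copy of Rps27, by 0.20 ± 0.11 (SE; limma adjusted p = 0.474 and 0.314).

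Of the paralogues, Rps27l, a p53 target related to Rps27, differed by 0.16 ± 0.10 and Rpl32l by 0.22 ± 0.13 between dark and light (SE; limma adjusted p = 0.416 and 0.372). Rpl10l, a paralogue enriched in testis, differed by 0.02 ± 0.11 (SE; limma adjusted p = 0.944). Rpl22l1, the paralogue of Rpl22, and Rps4l, a relative of Rps4x, had differences of -0.17 ± 0.14 and -0.22 ± 0.16 (SE; limma adjusted p = 0.542 and 0.489). Rps4l was highest in ZT10c, at 8.21, the array in which most members were low. For Rpl3l and Rpl39l, which were near the floor of the arrays, the differences were 0.04 ± 0.11 and -0.03 ± 0.15 (SE; limma adjusted p = 0.897 and 0.940).

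A second grouping concerned Tff3, which encodes a trefoil peptide that goblet cells secrete. At ZT6 its log2 value was 10.35 and 11.60 in arrays b and c, at ZT14 it was 13.26 and 13.63 in arrays b and d, and at ZT22 it was 11.42 in array a. The remaining 17 arrays had 2.31 to 4.73. These 5 arrays were picked by a measured value, so they are described within their times, against the 6 other arrays of ZT6, ZT14 and ZT22, with no test. Nothing in the labels sets these mice apart.

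Ribosomal protein transcripts tended to be high in the arrays with Tff3 above 8. In 16 of the 64 (25%), every such array was above every other array of the same time, against 4.76% of all features and 7.92% of the features above the median level. In 0 of the 64 was every such array below the others, against 3.64% of all features. The 16 were Rpl7, Rpl14, Rpl19, Rpl21, Rpl22, Rpl32, Rpl35, Rpl38 and Rpl41 of the 60S subunit and Rps7, Rps9, Rps16, Rps20, Rps24, Rps28 and Rpsa of the 40S subunit. None of the 8 paralogues was among them. The members' median difference between arrays with Tff3 above 8 and the others was 0.20 at ZT6, 0.16 at ZT14 and 0.29 at ZT22. Over all features it was 0.005, -0.015 and -0.010, and over the features above the median level 0.035, 0.10 and 0.050. The difference was positive at all 3 times in 29 of 64 members (45.3%), against 16.4% of all features and 23.8% of the brighter ones. It was negative at all 3 in Rpl29, Rpl35a and Rpl39l.

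Rps9, a 40S protein, had the largest mean difference of the 16, 0.82 log2 units. Its values were 10.29 and 10.86 in ZT6b and ZT6c, against 10.11 in ZT6a, then 11.32 and 11.11 in ZT14b and ZT14d, against 10.04 and 10.48 in the other ZT14 arrays. At ZT22 it had 11.22 in ZT22a, against 9.77, 10.26 and 10.54 in the others. The gap was narrow at ZT6 and wide at ZT14 and ZT22.

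Rpl38, a 60S protein known in mice from the Tail short mutation, had values of 12.29 and 12.24 in ZT6b and ZT6c, against 11.68 in ZT6a. It had 12.34 and 12.26 in ZT14b and ZT14d, against 11.93 and 11.55 in the other ZT14 arrays, and 12.60 in ZT22a, against 11.59, 12.12 and 12.01 in the other ZT22 arrays. The separation was of like size at the 3 times, with a mean difference of 0.61.

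Rps28, a 40S protein, had 10.97 and 11.22 in ZT6b and ZT6c, against 10.85 in ZT6a. It had 11.45 and 11.28 in ZT14b and ZT14d, against 10.36 and 11.24 in the other ZT14 arrays, and 11.77 in ZT22a, against 10.97, 10.34 and 11.14 in the other ZT22 arrays. At ZT14 the groups were separated by a small margin, since ZT14c was close to ZT14d. Rps20, Rps16 and Rpl35 had mean differences of 0.57, 0.56 and 0.49, and all 5 arrays with Tff3 above 8 were above the others of their time for each of them.

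**Figure D5:**
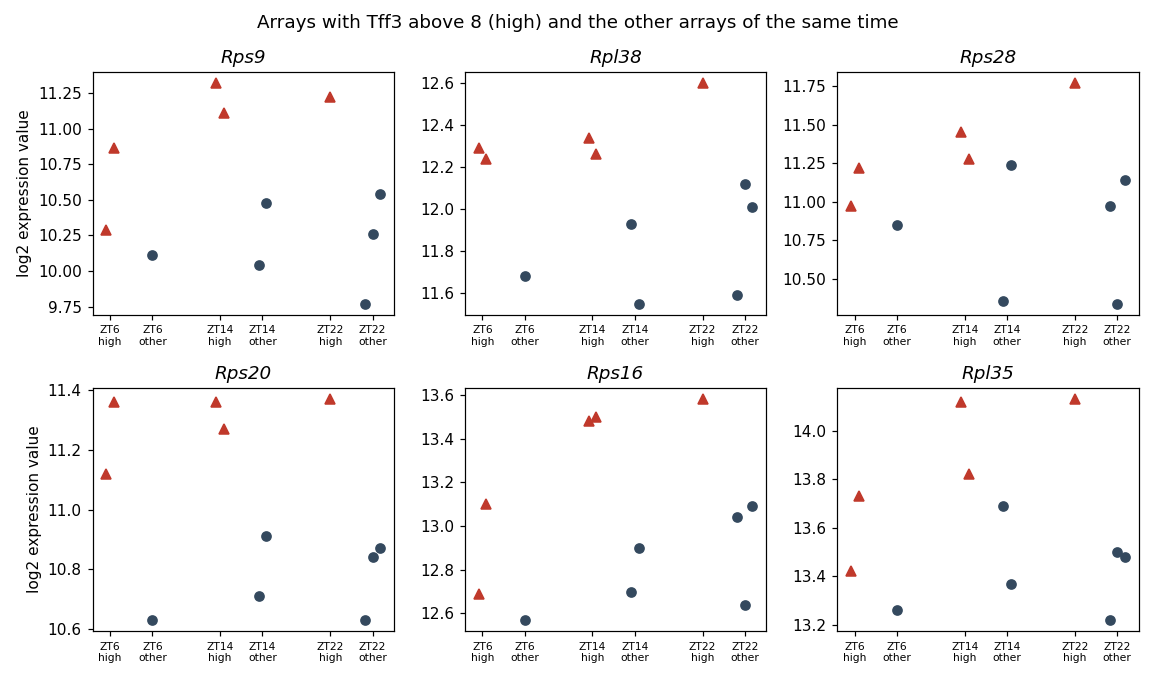
Log2 expression value (vertical axis) of the 6 members with the largest mean difference among the 16 set apart, in arrays with Tff3 above 8 (red triangles, left of each pair) and in the other arrays of the same time (blue circles). At ZT6, ZT14 and ZT22 every triangle lies above every circle. For Rps9 at ZT22 the triangle is at 11.22 and the circles reach 10.54.

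The separation was not the same in every such array. The median deviation of the members was 0.26 in ZT22a, 0.20 in ZT14b, 0.15 in ZT14d and 0.093 in ZT6c, but -0.13 in ZT6b. ZT6b was above ZT6a, at -0.20, while both were low against the series. The number set apart was 12 after quantile normalization, 13 after centring each array and 11 when a margin of at least 0.1 log2 units was asked for. The shares over all features were then 4.29%, 4.70% and 2.96%. Leaving out 1 array of these times can only loosen the condition, and the number was then 16 to 24, the highest without ZT6a, which also leaves ZT6 out of the comparison. Over all features the share was 9.03% without ZT6a. In the other omissions it ran from 5.17% without ZT22b to 9.95% without ZT22a, where 18 members were set apart. Leaving out ZT22a likewise takes ZT22 out of the comparison, which then rests on ZT6 and ZT14 alone. Members with every array with Tff3 above 8 below the others numbered 2 without ZT6a and 1 without ZT6b, against 1778 and 1111 of all features. Of the 12 set-apart genes with a promoter window, 6 held a TOP tract and 6 an ETS match. Those counts are near the shares of all 51 members with a window, 45.1% and 41.2%.

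Cell type markers were set beside this. The hepatocyte list (7 genes, none near the floor) had summed log2 levels of 21.83 to 22.06 in arrays with Tff3 above 8 and 21.94 to 22.07 in the other arrays of the same times. In that list 1 of 7 genes lay above and 2 below in all comparisons. The goblet cell and gut list (4 genes) had 12.37 to 13.87 against 10.80 to 12.03, but this sum holds Tff3, which picked the arrays. The other 3 genes of the list summed to 11.16 to 12.11 against 10.78 to 12.03, and none of them was set apart. Muc2 was at the floor in most arrays. The lymphocyte list (5 genes) had 6.47 to 7.17 against 6.23 to 6.51, with 0 of 5 set apart and Cd79b at the floor. The erythroid list had 1 measured gene, Alas2, with 10.77 to 11.36 against 10.02 to 11.08, and within each time its arrays with Tff3 above 8 were above the others, by 0.53, 0.25 and 0.88 at ZT6, ZT14 and ZT22. The stellate cell list (4 genes) had 14.06 to 15.34 against 13.87 to 15.03, with 1 gene set apart. Within times, the mean difference of all 4 stellate genes was positive at ZT6, ZT14 and ZT22, with medians of 0.45, 0.89 and 0.36. The Kupffer cell list (5 genes) had 10.04 to 10.43 against 9.63 to 10.35, with 1 gene set apart. Of its genes, 3 had positive differences at all 3 times and 1 had negative ones, with medians of 0.42, 0.21 and 0.037. The endothelial list (4 genes) had 11.66 to 12.42 against 11.62 to 12.61, with 1 gene set apart. Cholangiocyte (3 genes), neutrophil (3 genes), pancreatic (4 genes) and adipocyte lists (4 genes) overlapped, at 7.37 to 8.28 against 7.09 to 8.58, 5.36 to 6.80 against 5.60 to 6.16, 6.57 to 7.62 against 6.73 to 7.27, and 6.31 to 9.41 against 6.12 to 9.68. Of their genes, only the cholangiocyte marker Krt19 was set apart, below the others, with differences of -0.23, -0.30 and -0.49 at ZT6, ZT14 and ZT22. Of the adipocyte markers, Adipoq, Plin1 and Lep were at the floor. The part of other cell types in these differences was not tested, and in bulk liver RNA fewer cells of a type and less RNA per cell cannot be told apart.

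Genes that work with the ribosomal proteins were read from lists. Fau, which encodes a 40S protein fused to a ubiquitin-like protein, had a dark minus light difference of 0.31 ± 0.11 and did not pass (SE; limma adjusted p = 0.0959). Its arrays with Tff3 above 8 were above the others of their time. Of 17 measured genes of 23 in the list of other TOP mRNAs, 0 passed limma's cosine test and 3 had an unadjusted p under 0.05. The shares were 7.62% and 21.1% over all features, and 13.6% and 32.3% over the brighter ones. Eef1g, a subunit of elongation factor 1, was higher in the dark, with 13.36 against 12.95 in the light and a difference of 0.41 ± 0.11 (SE; limma adjusted p = 0.0296). This call was lost without ZT6a, ZT6b, ZT10b, ZT14c, ZT14d, ZT18b, ZT18c or ZT22a (limma adjusted p of at most 0.0709), and the difference without the arrays with Tff3 above 8 was 0.43 (0.0976). Pabpc1, the poly(A)-binding protein, had a cosine adjusted p of 0.154 in limma. In arrays with Tff3 above 8, 5 of the 17 were above the others of their time, against the shares of 4.76% of all features and 7.92% of the brighter ones given above: Eef1b2, Pabpc1, Nap1l1, Eif3h and Vim. Vim had by far the largest mean difference of these, 1.19, and the others had from 0.175 for Eif3h to 0.61 for Nap1l1.

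Of 22 measured regulators of 25 listed, 1 passed the cosine test, against 7.62% of all features and 13.6% of the brighter ones. Larp1, which binds TOP tracts, had a span of 1.48-fold with its peak at ZT0.18 ± 0.95 h (SE; limma adjusted p = 0.0158), near lights on. It averaged 13.37 at ZT22 and 12.78 at ZT10, a difference of 0.60 ± 0.15 log2 units (SE; limma adjusted p = 0.0231). The cosine call held in all 22 omissions, and that of ZT22 against ZT10 was lost without ZT10b, ZT10c, ZT22a or ZT22b (limma adjusted p of at most 0.0784). Mtor, the kinase upstream of Larp1, and Gabpa, an ETS factor, were the 2 regulators called lower in the dark, while 12 of the 22 had a negative difference. Mtor averaged 8.94 in the dark and 9.40 in the light, a difference of -0.46 ± 0.13 (SE; limma adjusted p = 0.0292). Gabpa averaged 11.94 in the dark and 12.31 in the light, a difference of -0.37 ± 0.10 (SE; limma adjusted p = 0.0294). The Mtor call was lost without ZT2c, ZT6c, ZT10b, ZT14d, ZT18a or ZT18b, and that of Gabpa without ZT2d, ZT6b, ZT14d, ZT18a, ZT18b or ZT18c (limma adjusted p of at most 0.0649 and 0.0611). Myc, a driver of ribosome production, passed the any-time test with its highest mean at ZT10 (limma adjusted p = 0.0354), a call lost without ZT2a, ZT10b, ZT10c, ZT10d, ZT18a, ZT18b, ZT18c or ZT22d (at most 0.142). Between ZT14 and ZT2, Max, the partner of Myc, was higher by 1.08 ± 0.28 (SE; limma adjusted p = 0.0253). Its ZT14 values were 9 and 8.62 in ZT14b and ZT14d, the arrays with Tff3 above 8, against 7.01 and 7.95 in the others, and without the arrays with Tff3 above 8 the difference was 0.41 (limma adjusted p = 0.523). The Max call was also lost without ZT2a, ZT2c, ZT2d, ZT14b or ZT14d (at most 0.133). Polr1a, the large subunit of RNA polymerase I, was higher by 0.75 ± 0.21 (SE; limma adjusted p = 0.0371), a call lost without ZT2a, ZT2b, ZT2d or any array of ZT14 (at most 0.140). Without the arrays with Tff3 above 8, Larp1 kept its cosine call (limma adjusted p = 0.0141). Its ZT22 minus ZT10 difference was then 0.55 and did not pass (limma adjusted p = 0.059). The dark minus light differences of Mtor (-0.46) and Gabpa (-0.33) did not pass there (limma adjusted p = 0.078 and 0.201). Nor did the Polr1a difference of 0.73 or the any-time test of Myc (limma adjusted p = 0.123 and 0.066). Larp1 and Eif4ebp2 were set apart in the arrays with Tff3 above 8. These are 2 of the 22, against 4.76% of all features and 7.92% of the brighter ones.

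Of 12 measured chaperones and handlers of ribosomal proteins of 15 listed, 2 passed the cosine test, both with peaks early in the dark. The shares called were 7.62% over all features and 13.6% over the brighter ones. Rrs1, needed to assemble the 60S subunit, spanned 1.81-fold with a peak at ZT15.3 ± 0.86 h (SE; limma adjusted p = 0.0148). Heatr3, which helps import Rpl5 into the nucleus, spanned 1.63-fold with a peak at ZT14.9 ± 1.0 h (SE; limma adjusted p = 0.0444). The Rrs1 call held in all 22 omissions and that of Heatr3 in 5 (ZT2c, ZT14a, ZT18a, ZT22a and ZT22b), and neither passed without the arrays with Tff3 above 8 (limma adjusted p = 0.123 and 0.314). Between ZT14 and ZT2 they were higher by 0.80 ± 0.21 and 0.79 ± 0.21 log2 units (SE; limma adjusted p = 0.0295 and 0.0268). The Rrs1 difference did not pass without ZT2a, ZT2c, ZT2d, ZT14b or ZT14d, nor that of Heatr3 without ZT2b, ZT2d, ZT14b or ZT14d. Without the arrays with Tff3 above 8 the differences were 0.54 and 0.48 (limma adjusted p = 0.261 and 0.396). Rpl5 itself did not pass any of the tests. Rrs1, 1 of the 12, was also above the other arrays of its time in all arrays with Tff3 above 8. The shares so set apart were 4.76% over all features and 7.92% over the brighter ones.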

How the data were processed

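Per the labels' protocols, liver RNA was isolated with TRIzol, and 100 ng of it was labelled with the WT Plus kit for Clariom S arrays. The log2 values were deposited by the authors as 1 processed value per feature and array. They were read as log2 from their range; how they were scaled, background-corrected and summarized is not given in the sources used here. Gene symbols came from the platform's annotation. The values were used as deposited. R 4.3.3 with limma 3.58.1 fitted all 22206 features at once: a 24 h cosine for the rhythm, and means of the 6 times for any difference, dark minus light and the 3 contrasts of 12 h, with eBayes and Benjamini-Hochberg adjustment over all features at 0.05. Correlations between arrays were 0.976 to 0.994, and 0 pairs were identical. The number of arrays limits the precision. The code was checked on simulated data.

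Genes named with values were those called or among the 6 lowest p in each test, the 6 with the largest mean difference among those set apart, all paralogues, the stalk proteins, Rps6, Rpsa and Rps27rt, and the members of largest and smallest spread. From other lists every called gene and the 2 of lowest p in the cosine test were named. Rpl5 was added after its values were seen. The members and lists were chosen with earlier results of these data known. Alternatives were quantile normalization, centring, a filter on dim features, other variance priors, array weights, the replicate letter as a block, omission of arrays and other thresholds. Promoter sequences came from RefSeq tables for GRCm38.p6.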

Additional observations from a re-analysis of the deposited data

Results flagged for a closer look

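Among 128 sets of 4 arrays (64 members at each of ZT2, ZT10, ZT14 and ZT22), 6 held a value that stood apart from the other 3 by Dixon's criterion, and chance alone marks about 1 set in 20. In ZT14a, Rpl22l1 had 7.39, against 8.22 to 8.29 in the other ZT14 arrays, and Rpl31 had 14.05, against 14.28 to 14.31. In ZT10c, Rpl35a had 10.08, against 11.26 to 11.45 in the other ZT10 arrays, and Rps27l had 11.59, against 12.06 to 12.15. Rps16 had 12.24 in ZT2c, against 12.89 to 12.95 in the other ZT2 arrays. Rpl3l had 3.48 in ZT22a, against 3.08 to 3.11 in the other ZT22 arrays, all near the floor of the array.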

How the results depend on the processing

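For the 24 h rhythm, 1 member was called as deposited and 3 (Rps15, Rpl3 and Rpl7l1) with a trended robust prior, with array weights, without the 5 arrays with Tff3 above 8, or among features above the median level only; omission of single arrays gave 1 to 3. For any difference among the times, the count of 2 became 0 after quantile normalization and at a threshold of 0.01, and 1 after centring, with the replicate block (Rps15 lost) and without the arrays with Tff3 above 8; it was 3 with the trended robust prior, which added Rpl6, and omissions gave 0 to 2. Dark minus light gave 3, with 2 after quantile normalization and without the arrays with Tff3 above 8 (Rpl3 lost), 4 with the trended robust prior (Rpl6 added) or array weights (Rps13 added), 5 among features above the median level, and 2 to 5 over omissions. ZT14 minus ZT2 gave 1, and 0 without the arrays with Tff3 above 8, with the 2 times alone and at 0.01, with 0 to 1 over omissions. ZT18 minus ZT6 gave 0 throughout, omissions included. ZT22 minus ZT10 gave 1, with 0 after quantile normalization, with the 2 times alone and at 0.01, 2 with the trended robust prior, 3 among features above the median level, and 0 to 2 over omissions. The number set apart in arrays with Tff3 above 8 was 16 and ran from 16 to 24 over omissions, an alternative chosen after seeing the data, as were the omissions for time of lowest mean, for median differences and for the genes of other lists. Of 1852 values of single members under these settings, 69 lost a call, 24 gained one and 0 changed sign. Amplitudes and largest minus smallest time means cannot be negative, so a change of sign was possible only in the contrasts. The causes were not tested. The replicate letters did not pair the arrays: residuals of 51 same-letter pairs correlated by -0.24 to 0.23 (median 0.003), and 5 of 22 arrays correlated best with their own letter. The replicate block left the counts at 1 for the rhythm and 3 for dark minus light. With 3 or 4 arrays per time and unstated normalization, differences of about the members' median are below what single-gene tests resolved.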
